A study of Mus musculus with 13 samples.

Results

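Expression of 9 genes that handle phosphate, pyrophosphate or citrate was examined in the enamel organ, the dental epithelium that makes enamel, of mouse mandibular incisors at postnatal day 11. The genes were chosen by function and matched by symbol, and the list was drawn up with the differences between genotypes in these libraries already known. Their differences between genotypes are therefore given as a description of the fit across all genes and support nothing further. All 9 were among the 48709 genes of the count table, and 8 of the 9 passed the filter on low counts that left 16328 genes for testing. The study measured RNA by bulk sequencing in 5 mice carrying 1 Tgfbr2 allele with the G357W substitution (Het; Tgfbr2-G357W/+) and in 8 of their wild-type littermates (WT; Tgfbr2-+/+). Mice with this allele are used to model the connective tissue disorder Loeys-Dietz syndrome (type II), and the only difference that the labels give between the groups is this allele. No treatment is given for either group.

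Enamel is a calcium phosphate mineral, so ameloblasts, the enamel-forming cells, have to supply phosphate and hold back inhibitors of crystal growth. Inorganic pyrophosphate is such an inhibitor. ENPP1 makes it outside the cell from ATP, ANK lets ATP or pyrophosphate leave the cell, and ALPL, the tissue-nonspecific alkaline phosphatase, splits it into phosphate. PHOSPHO1 releases phosphate inside matrix vesicles of bone and dentin, and ACPP (also called ACP3) is an acid phosphatase with a membrane form that removes phosphate from AMP. Slc20a1, Slc20a2 and Slc34a2 encode sodium-phosphate cotransporters, PiT-1, PiT-2 and NaPi-IIb. Slc13a5 encodes a sodium-citrate cotransporter, and its loss in humans is accompanied by enamel defects.

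Total counts per library were 18852382 to 26508410, of which the 9 genes together took between 0.113% and 0.151%. Markers of secretory ameloblasts summed to between 145871 and 288633 CPM (counts scaled to library size) in each library, led by Ambn, Amelx and Enam, and 9 of their 10 genes passed the filter. All 12 markers of osteoblasts and bone passed it too, with summed levels of 3766 to 7930 CPM in Het and 4536 to 9587 CPM in WT. Fewer cells of a type and less RNA per cell cannot be told apart in such bulk samples. Tgfbr2 counts were 1001 to 2280 over all libraries, with a difference of 0.22 ± 0.11 (SE) on the log2 scale (edgeR adjusted p = 0.741), and gene counts do not show which allele they come from. Column names carry a number before a hyphen (1, 4 or 5), called the prefix here, and libraries are named by it. Its meaning is unknown here. The Het libraries number 1, 2 and 2 in prefixes 1, 4 and 5, and the WT libraries 3, 3 and 2.

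The genes spanned a wide range of levels, and the order was set on CPM per kilobase of exon, since genes differ in length. In WT, Slc20a1 was the highest at 96.2 ± 15.3 (SD, n = 8), at rank 275 of the 13685 protein-coding genes tested. Alpl followed at 67.8 ± 11.8 and Slc13a5 at 40.2 ± 7.63. Each of these 3 exceeded the next gene of the order in 13 of 13 libraries. Slc20a2 (17.3 ± 2.87), Slc34a2 (13.1 ± 2.94), Acpp (9.22 ± 1.90) and Enpp1 (8.79 ± 1.51) formed a middle range in WT. Neighbours in this range did not separate beyond their spread: Slc20a2 exceeded Slc34a2 in 6 of 8 WT libraries, Slc34a2 exceeded Acpp in 6 of 8, and Acpp exceeded Enpp1 in 5 of 8. Ank was lower at 3.93 ± 0.84, below Enpp1 in 13 of 13 libraries. In Het the order of Acpp and Slc34a2 was the other way round, with Acpp above Slc34a2 in 5 of 5 libraries (14.4 ± 0.53 against 10.1 ± 3.06 CPM per kilobase, SD, n = 5).

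**Figure D1:**
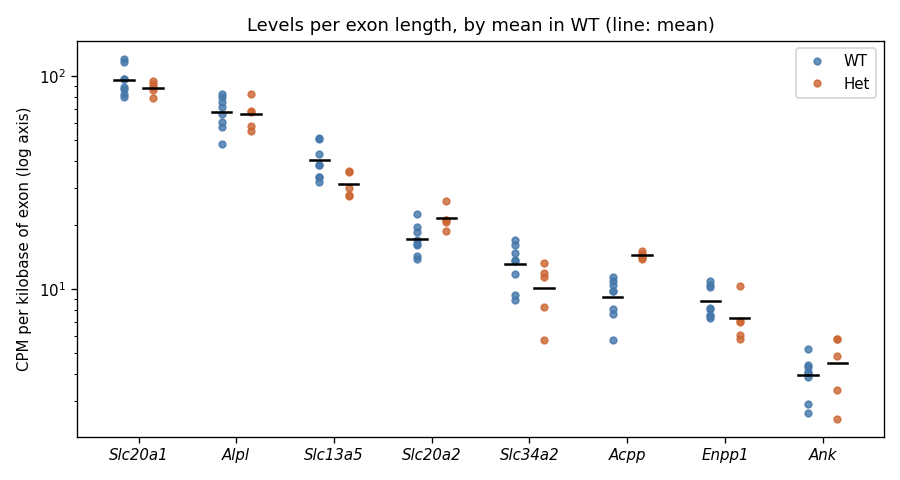
Level of 8 genes in CPM per kilobase of exon (log axis), ordered by the WT mean, with 1 point per library (8 WT, 5 Het) and a line at each mean. Slc20a1, Alpl and Slc13a5 stand apart in this order, and Acpp is the gene whose Het points lie above all WT points.

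The phosphatases differed from each other in both level and pattern. Acpp (ENSMUSG00000032561, chromosome 9, 104288251 to 104337748, minus strand, GRCm38) was the gene of the group with the largest difference between genotypes. Its levels were 111, 107, 101, 104 and 104 CPM in Het libraries 1-2, 4-2, 4-5, 5-5 and 5-6. In WT the lowest was 42.5, the median 71.7 and the highest 83.2 CPM. Every Het library thus lay above every WT library, and the Het values were tightly grouped, with a coefficient of variation of 3.65% against 20.6% in WT. Of all genes tested, 0.490% had ranges that did not overlap between the genotypes, and Acpp was the 1 such gene of the 8 tested here. The log2 fold change of Acpp was 0.64 ± 0.13 (SE), a 1.56-fold higher level in Het, with an adjusted p of 0.0589 that missed the threshold of 0.05 (edgeR quasi-likelihood test, Benjamini-Hochberg over all genes). It ranked 24 of 16328 genes by p.

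The call for Acpp depended on the tool and the filter, while its size did not. It passed with DESeq2 (adjusted p = 0.00254), which called 0.481% of the genes it gave an adjusted p, and with limma-voom and sample weights (0.0298), which called 0.165% of all genes. In edgeR it passed with the prefix as a term (adjusted p = 0.0460), without a filter on low counts (0.0253) and with at least 1 CPM in 5 libraries (0.0469), where 0.184%, 0.0858% and 0.176% of genes were called. It did not pass in edgeR with RLE (adjusted p = 0.0551) or upper-quartile factors (0.0531) in place of TMM, or on the authors' filtered table (0.0640). Nor did it pass in edgeR without prefix 4 (adjusted p = 0.311) or without prefix 5 (0.201). Acpp was called in 7 of all 25 alternatives. Over these 25 the log2 fold change lay between 0.56 and 0.77, and the edgeR, limma or DESeq2 adjusted p between 0.00254 and 0.782. With 1 library left out, edgeR called Acpp in 2 of 13 fits, without WT 4-4 (log2 fold change 0.57, adjusted p = 0.0313) and without WT 5-1 (0.68, 0.0434), and the adjusted p reached 0.183 without Het 1-2. Within prefixes 1, 4 and 5 the difference was 0.76, 0.85 and 0.35 on the log2 scale, a direction that the lack of overlap fixes. WT 4-4, the library with the lowest Acpp, also had the lowest summed secretory markers and the highest summed osteoblast markers of the WT libraries. Its sums were the highest in WT as well for maturation-stage (later) ameloblasts, odontoblasts and pulp, fibroblasts, osteoclasts, and endothelium and pericytes. They were not for stratum intermedium and papillary layer, skeletal muscle or macrophages. The part of these markers in the Acpp values was not tested.

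**Figure D2:**
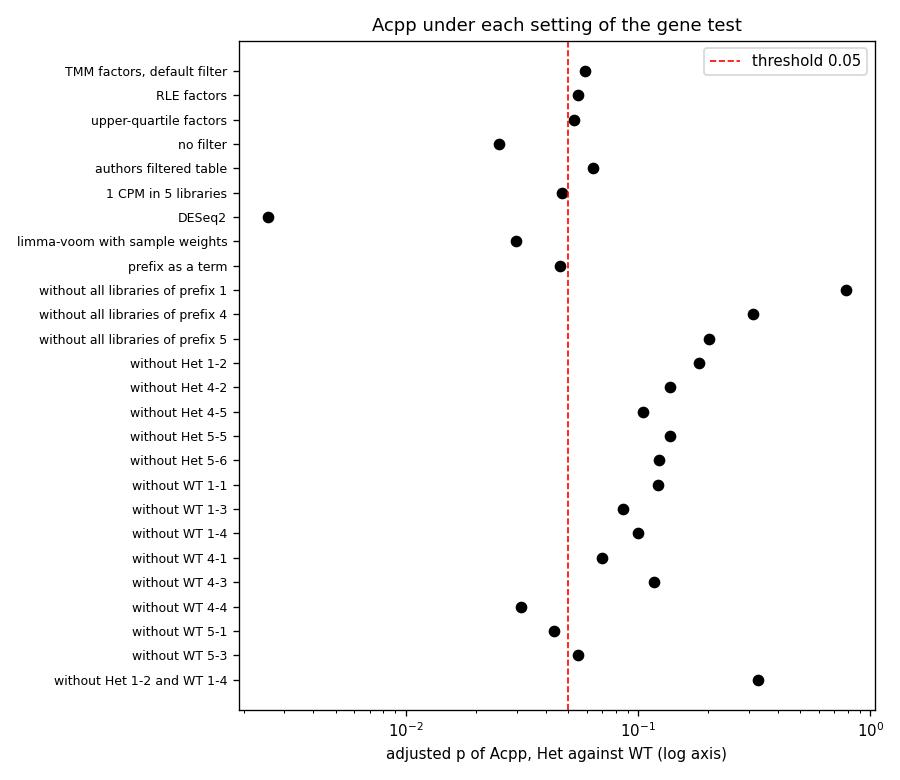
Adjusted p of Acpp for Het against WT (log axis) under each setting of the gene test, with the threshold of 0.05 as a dashed line. Points lie on both sides of the line, from 0.00254 with DESeq2 to 0.782 without all libraries of prefix 1.

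The promoter of Acpp is shown because this gene separated the genotypes. RefSeq promoters (GRCm38.p6, 250 bases before to 50 after a start) were found for 8 of the 9 genes, with 11 start sites in all, and the entry for Slc20a2 is missing. The Acpp window is chr9:104337673-104337972 on the minus strand, and capitals mark matches to CAGAC or its reverse complement GTCTG, a short element bound by SMAD proteins, the transcription factors of TGF-beta signalling.

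Acpp: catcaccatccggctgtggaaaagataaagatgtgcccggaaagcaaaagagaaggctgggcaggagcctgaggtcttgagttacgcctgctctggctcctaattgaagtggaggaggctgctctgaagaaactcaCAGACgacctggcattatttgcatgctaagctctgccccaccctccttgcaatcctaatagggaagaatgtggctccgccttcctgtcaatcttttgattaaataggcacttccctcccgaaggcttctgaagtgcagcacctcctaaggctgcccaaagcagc

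The Acpp window holds 1 such match. At least 1 was found in 7 of the 11 windows of the group and in 49.6% of all 32851 RefSeq windows of this length, so a match of these letters is common. The longer palindrome GTCTAGAC was in 0 of the 11 and in 0.213% of all. GC content was 52.0% for Acpp, against a median of 52.7% over all windows and 78.0% for Ank, the highest of the group. These matches describe letters in a window and say nothing about binding.

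Alpl (ENSMUSG00000028766, chromosome 4, 137741733 to 137796384, minus strand) showed no separation of the genotypes. Its levels were 272, 276, 334, 224 and 236 CPM in the Het libraries in the order above, and 194 at the lowest, 278 at the median and 333 at the highest in WT. The highest of all was Het 4-5, just above the highest WT library, and the ranges otherwise coincided. Het minus WT was -0.03 ± 0.13 on the log2 scale (SE, edgeR adjusted p = 0.978), and its sign depended on single libraries. Within prefixes 1, 4 and 5 the difference was -0.06, 0.08 and 0.01.

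Phospho1 (ENSMUSG00000050860, chromosome 11, 95824499 to 95832140, plus strand) had 5 counts in the Het libraries together and 14 in the WT libraries together. It was at 0 in 2 Het and 2 WT libraries, its highest count was 5, and it was not tested. In the annotation 89.6% of its exon bases also lie in exons of Zfp652 on the same strand and 84.2% in exons of Abi3 on the other strand. Of the 75-base words in its transcripts, as long as the reads, 83.4% also occur in transcripts of Zfp652, which had 8340 to 15893 counts per library. How the authors' counting assigned reads that match both genes is not known here, so these counts are not read as the level of Phospho1. None of the words of Alpl, Acpp, Enpp1, Ank or Slc34a2 occurs in another gene's transcripts.

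**Figure D3:**
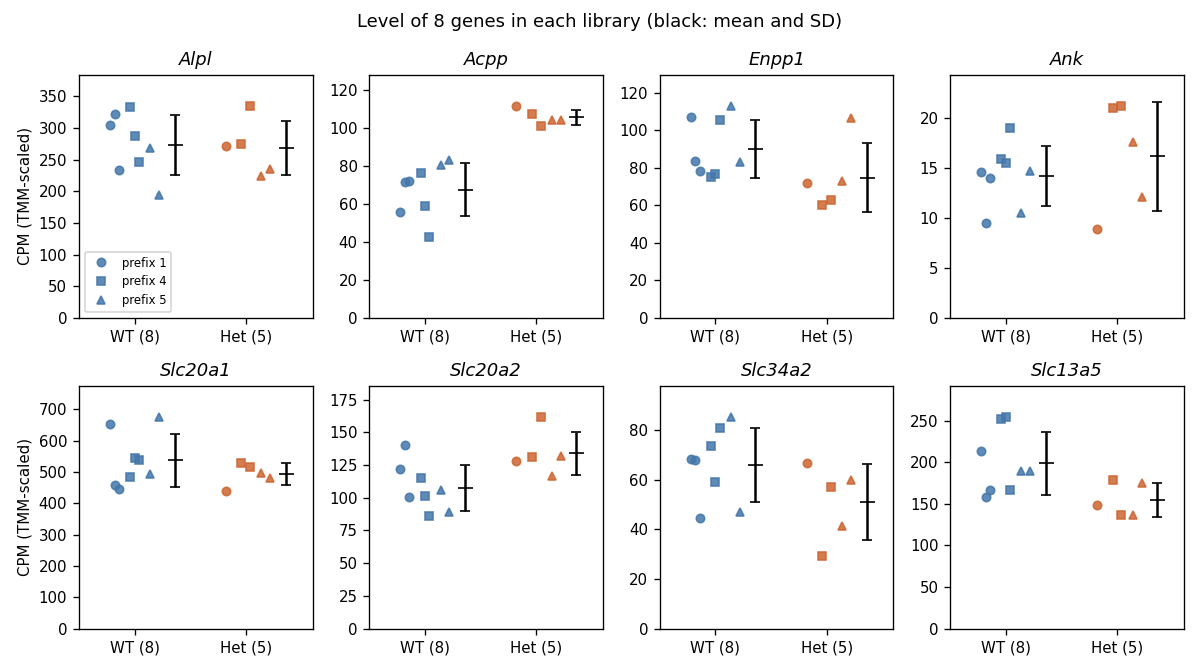
Level of 8 genes in each library, in TMM-scaled CPM on axes that start at 0, with symbols for the prefix and the mean ± SD in black (8 WT, 5 Het). The genotypes are apart for Acpp, where Het lies between 101 and 111 CPM and WT between 42.5 and 83.2 CPM, and overlap for the other 7.

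Enpp1 and Ank, the source of extracellular pyrophosphate and its exporter, had opposite signs of difference, and neither passed the test. Enpp1 (ENSMUSG00000037370, chromosome 10, 24637914 to 24712159, minus strand) stood at 71.6, 59.9, 62.7, 73.0 and 106 CPM in Het libraries 1-2, 4-2, 4-5, 5-5 and 5-6. WT libraries ran from 74.8 through a median of 83.4 to 113 CPM. Thus 4 of 5 Het libraries were below the lowest WT library, and the fifth, Het 5-6, was in the upper part of the WT range. The log2 fold change was -0.27 ± 0.14 (SE, edgeR adjusted p = 0.753), and within prefixes 1, 4 and 5 the difference was -0.31, -0.46 and -0.13. Without Het 5-6 it was -0.43, the largest over the alternatives. The Enpp1 promoter (chr10:24712110-24712409, minus strand) is shown because it holds more matches to CAGAC or GTCTG than any other window of the group, 3 against a mean of 0.71 over all RefSeq windows, in capitals.

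Enpp1: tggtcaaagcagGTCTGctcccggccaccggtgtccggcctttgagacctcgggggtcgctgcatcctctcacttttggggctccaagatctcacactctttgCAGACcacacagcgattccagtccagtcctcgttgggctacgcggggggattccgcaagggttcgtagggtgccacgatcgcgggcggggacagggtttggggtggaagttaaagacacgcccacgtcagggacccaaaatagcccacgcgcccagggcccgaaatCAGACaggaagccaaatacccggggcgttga

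Ank (ENSMUSG00000022265, chromosome 15, 27466677 to 27594909, plus strand) varied most between libraries in Het, with a coefficient of variation of 33.8% there and 21.4% in WT. Its Het levels were 8.91 CPM in 1-2, 21.1 in 4-2, 21.2 in 4-5, 17.6 in 5-5 and 12.1 in 5-6. WT libraries ran from 9.45 through a median of 14.7 to 18.99 CPM. Het libraries held both the lowest value and the 2 highest, so the WT range lay inside the Het range. Its log2 fold change was 0.19 ± 0.19 (SE, edgeR adjusted p = 0.872), and leaving out Het 1-2 gave 0.35, Het 4-2 gave 0.08, Het 4-5 gave 0.08 and WT 1-3 gave 0.12. The sign differed by prefix, with -0.48 in prefix 1, which has a single Het library, 0.33 in prefix 4 and 0.23 in prefix 5.

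The type III phosphate cotransporters Slc20a1 and Slc20a2 also had opposite signs. Slc20a1 (ENSMUSG00000027397, chromosome 2, 129198764 to 129211616, plus strand) measured 440.2, 530.1, 515, 497 and 482 CPM in the Het libraries and 447, 517 and 675 CPM at the lowest, median and highest WT library. The Het values lay within or just below the WT range. On the log2 scale Het minus WT was -0.12 ± 0.12 (SE, edgeR adjusted p = 0.864), and it was -0.08 without Het 1-2, -0.08 without WT 1-1 and -0.07 without WT 5-3. In the annotation 8.1% of its exon bases overlap exons of 9830144P21Rik on the other strand, which had 1966 to 3304 counts per library, and with unstranded libraries reads from the shared bases cannot be assigned to 1 of the 2.

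Slc20a2 (ENSMUSG00000037656, chromosome 8, 22476788 to 22569612, plus strand) measured 128, 131, 161, 117 and 132 CPM in the Het libraries. WT libraries ran from 86.3 through a median of 103 to 140.4 CPM. All 5 Het libraries were above the WT median and 1 of them, Het 4-5, was above every WT library. Its log2 fold change was 0.32 ± 0.12 (SE) with an unadjusted p of 0.0142 and an edgeR adjusted p of 0.574. It was positive within each prefix, at 0.10, 0.54 and 0.36.

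Slc34a2 (ENSMUSG00000029188, chromosome 5, 53038081 to 53071664, plus strand), the type II cotransporter, had levels of 66.8, 29.0, 57.2, 41.4 and 59.9 CPM in the Het libraries. WT libraries ran from 44.5 through a median of 68.2 to 85.2 CPM. All 5 Het libraries were below the WT median, and Het 4-2 and Het 5-5 were below the lowest WT library. Het minus WT was -0.37 ± 0.19 (SE, edgeR adjusted p = 0.741) on the log2 scale, and -0.23 without Het 4-2. Within prefixes it was 0.17 in prefix 1, -0.79 in prefix 4 and -0.35 in prefix 5. The other type II genes, Slc34a1 and Slc34a3, reached at most 13 and 2 counts in any library and were not tested.

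The citrate transporter Slc13a5 (ENSMUSG00000020805, chromosome 11, 72241989 to 72267222, minus strand) stood at 148, 178, 136, 137 and 175 CPM in the Het libraries. In WT the lowest, median and highest values were 158, 189 and 254 CPM. All 5 Het libraries were below the WT median and 3 of them below the lowest WT library. The log2 fold change was -0.36 ± 0.13 (SE), or 0.779-fold, with an unadjusted p of 0.0130 and an edgeR adjusted p of 0.566. It was negative within each prefix, at -0.26, -0.50 and -0.29. Of its exon bases 9.57% overlap 1700051A21Rik on the other strand, which had at most 11 counts in a library.

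Across the group, edgeR called 0 of the 8 genes tested between Het and WT, where 0.0857% of all genes tested were called (14 of 16328). At an unadjusted p under 0.05 there were 3 of 8 (Acpp, Slc20a2 and Slc13a5), beside 6.90% of all genes (1127 of 16328). DESeq2 and limma-voom each called 1 of the 8, Acpp, beside 74 and 27 of all genes. Of the 8 log2 fold changes 3 were positive and 5 negative, with a median of -0.08 beside -0.0044 over all genes tested. Of all 16328 genes tested 8305 had a negative value. Markers of maturation-stage ameloblasts, the cells that follow the secretory stage, also had lower means in Het. Of the 16 maturation markers tested 16 had a negative log2 fold change (median -0.27). The main edgeR fit and limma-voom called 0 (6 at an unadjusted edgeR p under 0.05). DESeq2 and edgeR with the prefix as a term each called 1, the zinc transporter Slc39a2, among 74 and 30 genes. Some other marker lists had mostly negative values too: 12 of 12 for osteoblasts and bone (median -0.16) and 8 of 8 for skeletal muscle (-0.44). So did 8 of 9 for odontoblasts and pulp (-0.21, a list that shares Col1a1, Dmp1 and Phex with bone) and 8 of 9 for osteoclasts (-0.14). In these lists edgeR, DESeq2 and limma-voom called 0, with 1, 0, 0 and 3 at an unadjusted edgeR p under 0.05. For some genes the fit and the mean log2 CPM differed in sign. Dspp, in the odontoblast and secretory lists, counted as negative (-0.41 ± 1.28, SE), with means of 2.55 in Het and 0.82 in WT. The muscle gene Ckm counted as negative too (-0.81 ± 1.21, SE), with means of 1.53 and 1.38. The other lists were mixed. Positive and negative values numbered 5 and 4 for secretory ameloblasts (median 0.11), and 5 and 6 for stratum intermedium and papillary layer (-0.02). They numbered 5 and 5 for fibroblasts, 5 and 3 for endothelium and pericytes, and 6 and 2 for macrophages and immune cells. Again 0 were called. At an unadjusted edgeR p under 0.05 there were 3 of 11 for stratum intermedium and papillary layer and 0 in each of the other mixed lists. The summed level of the maturation markers was 29360 to 54192 CPM in Het and 43529 to 58562 CPM in WT, and 1 of the 18, Alb, was at 0 throughout. Het 4-2, the library with the lowest Slc34a2, also had the lowest sum. Without Het 4-2 the log2 fold changes of Slc34a2, Slc13a5 and Enpp1 were -0.23, -0.42 and -0.20, and edgeR called 0 of the 8 genes (3 at an unadjusted p under 0.05).

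**Figure D4:**
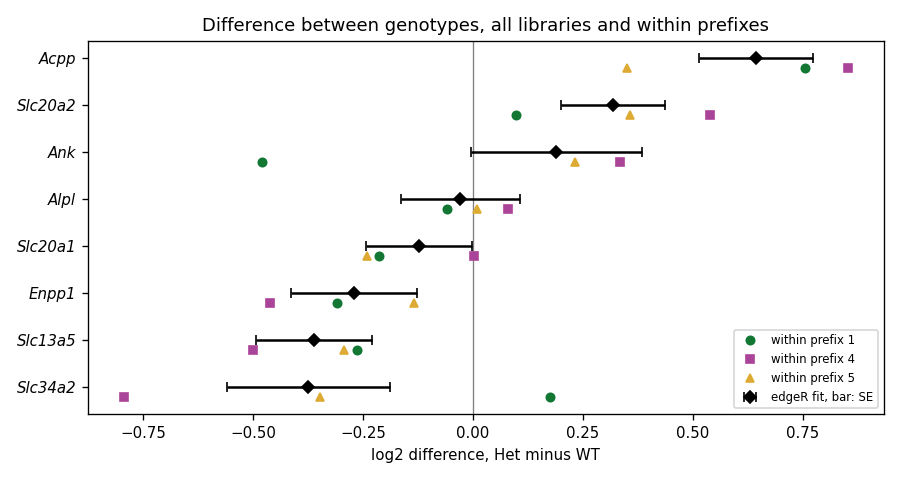
Difference of Het minus WT on the log2 scale for 8 genes, from edgeR over all 13 libraries (diamonds, bars are SE) and as differences of mean log2 CPM within prefixes 1, 4 and 5 (1, 2 and 2 Het libraries). Acpp lies farthest from 0 at 0.64, and the prefix points of Ank, Alpl, Slc20a1 and Slc34a2 fall on both sides of 0.

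A grouping that did not choose the genes is the prefix, and it was tested with genotype as a term. Over all genes edgeR called 6.08% between prefixes (992 of 16328), and 0 of the 8 genes. At an unadjusted p under 0.05 there were 2 of 8, near the share of all genes (23.0%, 3758 of 16328). Ank was closest, with means of 11.7, 18.5 and 13.7 CPM in prefixes 1, 4 and 5 and an adjusted p of 0.0789. A DESeq2 likelihood ratio test, which called 15.5% of genes, called it (adjusted p = 0.0269), as did edgeR without WT 1-1 (0.0382) and without a filter on low counts (0.00196, with 5.93% of genes called). Alpl followed, with 283, 295 and 230.4 CPM and an edgeR adjusted p of 0.194. For Slc34a2 the means were close, at 61.9, 60.0 and 58.4 CPM, although its libraries ranged from 29.0 to 80.9 CPM within prefix 4.

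Relations between the genes were computed across the 13 libraries on log2 CPM after subtracting each genotype's mean, for the 28 pairs of 8 genes. Alpl and Slc20a2 was the 1 pair that passed, with Pearson r = 0.82 (permutation p = 0.00154, Benjamini-Hochberg adjusted p over 28 pairs 0.0431) and Spearman rho = 0.80 (permutation p = 0.00285, adjusted p 0.0798). Libraries with more Alpl thus had more Slc20a2 in both genotypes. Within prefixes 1, 4 and 5 r was 0.89, 0.70 and 0.48 over 4, 5 and 4 libraries. These values were computed without subtracting genotype means, so differences between genotypes enter them. With genotype and prefix means both subtracted, r was 0.95. The permutation p was then 0.00347, the smallest that the 288 arrangements can give. Without the 2 libraries farthest from the median of Alpl, r was 0.73 (permutation p = 0.0193), which did not pass over the 28 pairs (adjusted p 0.541). With both means subtracted Enpp1 and Acpp also passed (r = -0.68, adjusted p 0.0486 by permutation), with r of -0.27 before the prefix means were removed. Its permutation p was the same smallest possible 0.00347. Both pairs had the adjusted p of 0.0486, and each passed only because the 2 tied at that smallest p.

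**Figure D5:**
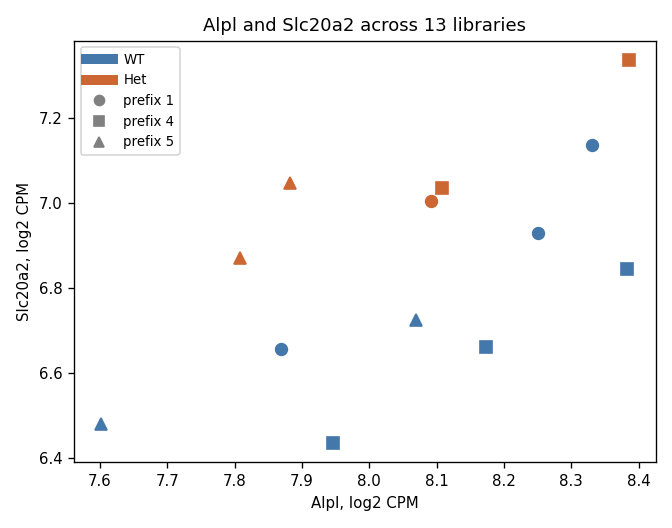
Alpl against Slc20a2 in log2 CPM, 1 point per library, coloured by genotype (8 WT, 5 Het) and shaped by prefix. Higher Alpl goes with higher Slc20a2 in both genotypes, with the Het points above the WT points of like Alpl.

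Levels of 4 marker lists (secretory and maturation ameloblasts, stratum intermedium and papillary layer, osteoblasts and bone) were related to the 8 genes in the same way. A list's level here was the mean log2 CPM of its tested genes, not their summed CPM. In the secretory list Dspp, also in the odontoblast list, had a mean of 0.82 and an SD of 2.45 log2 CPM in WT. The next largest SD of that list in WT was 0.54 (Mmp20). Dspp can thus weigh heavily in that mean, and its part in the relations was not tested. None of the 32 relations passed after adjustment, and 5 had an unadjusted permutation p under 0.05. The strongest were Acpp with secretory markers (r = 0.81, rho = 0.79, permutation p = 0.00702, adjusted p 0.200, and r = 0.82 without the 2 farthest libraries) and Slc34a2 with maturation markers (r = 0.73, rho = 0.72, permutation p = 0.0125, adjusted p 0.200, and r = 0.71). Within prefixes r was computed without subtracting genotype means, so differences between genotypes enter it. This uncentred r was 0.92, 0.94 and -0.36 in prefixes 1, 4 and 5 for Acpp, and -0.69, 0.98 and 0.98 for Slc34a2. Its sign thus differed between prefixes for both genes. With genotype and prefix means both subtracted, r was 0.66 for Acpp and 0.76 for Slc34a2 (permutation adjusted p 0.389 and 0.711). For Alpl the highest r with genotype means subtracted was with the stratum intermedium and papillary layer (0.65, rho = 0.74, permutation p = 0.0234, adjusted p 0.237). With osteoblast markers it was -0.36 (permutation p = 0.264).

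Other genes were searched for the pattern most like each member's, by Pearson r on the same centred values over 13 libraries and 12376 genes. As maxima of a search over libraries that share preparation and depth, these r are given without a p. Acpp was most like Tubb6 (r = 0.97) and Golgb1 (0.93). Alpl was most like Nol6 (0.96) and Gtf3c1 (0.94), and Slc20a2 most like Nectin4 (0.95) and Cdh3 (0.90). Slc13a5 was most like Med9 (0.92) and Bmp4 (0.92), Ank like Nlgn3 (0.92) and Ghr (0.92), and Slc34a2 like Kctd10 (0.90) and Eif5a (0.89). Enpp1 had Dsg2 (0.87) and Mbnl1 (0.87), and Slc20a1 had Snrnp40 (0.87) and Lst1 (0.87). None of these genes passed the edgeR test between genotypes, with adjusted p from 0.565 upward. Tubb6, like Acpp, had Het and WT ranges that did not overlap (log2 fold change 0.23, edgeR adjusted p = 0.666).

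Related genes outside the group were taken from 5 lists, and edgeR, DESeq2 and limma-voom called 0 of their members between genotypes (at an unadjusted edgeR p under 0.05, 1 phosphate transporter, 2 phosphatases and 0 in the other lists). Among other phosphate transporters 5 of 12 were tested, with 4 positive and 1 negative log2 fold change (median 0.04). Xpr1, which exports phosphate from cells, was the 1 with a negative value (-0.29 ± 0.11, SE, edgeR adjusted p = 0.612), and Slc37a3 had 0.21 ± 0.14. Among 12 tested regulators of phosphate balance 9 were negative and 3 positive (median -0.16), with the stanniocalcins Stc2 and Stc1 at -0.51 ± 0.29 and -0.44 ± 0.24 (SE). Of 16 tested genes of pyrophosphate and extracellular ATP 11 were positive and 5 negative (median 0.08). The ATP-hydrolysing Entpd3 had 0.24 ± 0.13 and Enpp5, a relative of Enpp1, 0.27 ± 0.15.

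Among other phosphatases 7 of 12 were tested, 3 positive and 4 negative (median -0.15). Minpp1, which removes phosphate from inositol polyphosphates, had 0.30 ± 0.12 (SE, edgeR adjusted p = 0.635), and Acp5, the tartrate-resistant acid phosphatase of osteoclasts, -0.36 ± 0.17 (0.719). The other alkaline phosphatase genes Alpi, Alppl2 and Akp3 reached at most 2 counts in any library, so that Alpl was the only alkaline phosphatase tested. In the citrate list 10 of 13 were tested, 7 positive and 3 negative (median 0.07). Idh1, the cytosolic isocitrate dehydrogenase, had -0.22 ± 0.11 and Slc25a10, a mitochondrial dicarboxylate carrier, 0.23 ± 0.13 (SE). Of the other Slc13 genes Slc13a2 was tested, at a mean of -0.17 log2 CPM in WT beside 7.61 for Slc13a5, and Slc13a1, Slc13a3 and Slc13a4 reached at most 1, 10 and 15 counts.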

How the data were processed

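The authors deposited raw counts per gene for 13 libraries and a filtered copy of that count table with 21223 features. They also deposited a normalized signal per gene, CPM with TMM scaling per the file's name, which equals the counts times 1 constant per library. For 8 of these genes the CPM used here stood at 0.996 to 1.003 times that signal. The submitters' processing notes name STAR 2.5.2a, the build GRCm38, DESeq2, edgeR and limma. The sources used here name no counting tool or annotation. Per the labels' protocols, libraries were unstranded (Nextera XT) and read as single reads on a NextSeq 500. Spike-in and transgene rows, at most 0.000177% of a library's counts, stayed out.

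Counts were tested with edgeR 4.0.16 in R 4.3.3 (TMM, filterByExpr with a minimum of 10, robust glmQLFit, glmQLFTest, Benjamini-Hochberg over 16328 genes, threshold 0.05). The prefix was tested with genotype as a term. DESeq2 1.42.0 and limma 3.58.1 were alternatives. CPM are TMM-scaled, and log2 CPM has a prior count of 2. Exon lengths and positions came from GENCODE M21. Correlations were tested by 100000 permutations of libraries within genotype. Phospho1 was not tested, so 28 pairs remained of 36 planned. Scripts were checked on simulated data. No 2 libraries agreed within sampling noise (lowest chi-square 11.1 per gene over 78 pairs). The labels' replicate numbers do not appear in the columns, so each column has a genotype but no replicate.

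The members, lists and tests were chosen with earlier results of these data known. Named genes are all members, Tgfbr2, in each pathway list the genes past the threshold or else the 2 of smallest p, and for each member the 2 genes of highest r (mean log2 CPM 0 or more, no Gm or Rik symbols). Other genes were singled out after their values were seen.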

Additional observations from a re-analysis of the deposited data

How the results depend on the processing

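Of the 8 members tested, 7 kept the sign of their difference in all 25 alternatives, and Alpl did not. The log2 fold change of Alpl turned positive with the prefix as a term (0.00988), without prefix 1 (0.0105) and without prefix 5 (0.0360), and ranged from -0.113 to 0.0329 with 1 library left out, so its sign is not determined. Between genotypes the count of genes called was 27 with no filter, 25 with at least 1 CPM in 5 libraries, 74 with DESeq2, 27 with limma-voom, 30 with the prefix as a term, 0 without prefix 1 (731 at an unadjusted p under 0.05 in edgeR), 1 without prefix 4 and 2 without prefix 5. It was 2 without Het 1-2 and WT 1-4, the libraries of highest skeletal muscle markers in their groups, an alternative chosen after seeing the data, and 6 to 22 with 1 library left out. The count of members called was 1, Acpp, with no filter, 1 CPM in 5 libraries, DESeq2, limma-voom and the prefix as a term, and 0 to 1 with 1 library left out. Between prefixes 1866 genes were called with no filter and 2140 with DESeq2, with 1 member, Ank, in each, and leaving out 1 library gave 280 to 1466 genes and 0 to 1 members. Of the member pairs 0 passed by Spearman, 2 with genotype and prefix means subtracted (tied at the smallest possible permutation p) and 0 without the 2 farthest libraries. The cause of these changes was not tested, beyond the fewer libraries or other genes tested that some settings bring. No paired analysis was possible because the columns of the count tables carry no replicate number from the labels. The prefix, whose meaning is unknown here, was used as a block in its place, in the fit with the prefix as a term.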

Other observations

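Ratios of RNA levels per exon length within a library were taken for genes of related function. No enzyme or transport activity was measured. Alpl over Enpp1, the enzyme that removes pyrophosphate over the one that makes it, had a mean of 9.67 ± 3.12 (SD) over the 5 Het libraries and 7.94 ± 2.06 over the 8 WT libraries, with ranges of 5.64 to 13.6 and 5.93 to 11.3. Slc20a1 over Slc20a2 was 4.14 ± 0.49 in Het and 5.73 ± 1.48 in WT, with ranges of 3.55 to 4.74 and 3.63 to 8.44. Slc20a2 over Slc34a2 was 2.30 ± 0.81 in Het and 1.37 ± 0.32 in WT, with ranges of 1.55 to 3.63 and 0.86 to 1.82. Enpp1 over Ank was 1.88 ± 1.00 in Het and 2.35 ± 0.76 in WT, with ranges of 1.00 to 3.09 and 1.66 to 3.79. The ranges of the genotypes overlapped for each of these ratios.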
